A study of Homo sapiens with 26 samples.

Results

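The genes described here are 7 factors that guard DNA methylation at imprinted regions or in the early embryo: ZFP57, ZNF445, TRIM28, DPPA3, DPPA5, NLRP7 and KHDC3L. They were named by symbol, and each gene's row was chosen by its measured mean over all arrays, the highest among rows with exactly 1 symbol. A row was found for 6 of the 7 genes, out of 18417 genes measured; NLRP7 was not analysed here. The study used NCCIT, a human embryonal carcinoma cell line, and hybridized its RNA to 26 Affymetrix Human Gene 1.0 ST arrays, in 13 groups of 2. Single siRNAs against the DNA methyltransferase genes gave the groups siDNMT1, siDNMT3A, siDNMT3B and siDNMT3L. DNMT1 siRNA was combined with DNMT3A siRNA (siD1+3A), with DNMT3B siRNA (siD1+3B) or with both (siD1+3A+3B). DNMT3 siRNAs were combined without it as 3A+3B, as 3A+3L, as 3B+3L and, all together, as 3A+3B+3L. The control siRNA groups were siNTC-1 and siNTC-2. All groups were the same cell line grown in the same serum-containing medium and transfected with the same reagent. The labels do not say whether the 2 arrays of a group came from separate cultures, so p-values measure only the spread between arrays, which may be technical, and the number of arrays limits the precision.

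Imprinted genes keep a methylation mark on 1 parental copy through the wave of demethylation that follows fertilization. ZFP57 and ZNF445 are KRAB zinc finger proteins that bind imprinting control regions, and TRIM28 is the corepressor that they recruit, which in turn brings the H3K9 methyltransferase SETDB1 and heterochromatin proteins. DPPA3, also called STELLA, shields the maternal genome of mouse zygotes from TET3. DPPA5 is a KH-domain RNA-binding protein of pluripotent cells and early germ cells, and KHDC3L is a KH-domain protein of the subcortical maternal complex of the oocyte, which is needed to establish maternal imprints in humans. DNMT1 copies methylation to the new strand after replication, DNMT3A and DNMT3B methylate new sites, and DNMT3L is a cofactor of both.

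The promoters of 4 of these genes are shown because CpG sites are what the depleted enzymes methylate. Each is 300 bases, from 250 before to 50 after the annotated start, taken from RefSeq on GRCh38.p14 and written 5′ to 3′ on the gene's strand with every CpG in capitals. DPPA3 is at chr12:7711183-7711482 on the plus strand, ZFP57 at chr6:29681103-29681402 on the minus strand, DPPA5 at chr6:73354227-73354526 on the minus strand and ZNF445 at chr3:44477621-44477920 on the minus strand.
DPPA3: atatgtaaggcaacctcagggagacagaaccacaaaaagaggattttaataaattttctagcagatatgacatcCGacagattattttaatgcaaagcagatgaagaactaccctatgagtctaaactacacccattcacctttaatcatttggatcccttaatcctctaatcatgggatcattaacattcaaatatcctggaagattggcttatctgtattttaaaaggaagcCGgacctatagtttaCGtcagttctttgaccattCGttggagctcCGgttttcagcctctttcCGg
ZFP57: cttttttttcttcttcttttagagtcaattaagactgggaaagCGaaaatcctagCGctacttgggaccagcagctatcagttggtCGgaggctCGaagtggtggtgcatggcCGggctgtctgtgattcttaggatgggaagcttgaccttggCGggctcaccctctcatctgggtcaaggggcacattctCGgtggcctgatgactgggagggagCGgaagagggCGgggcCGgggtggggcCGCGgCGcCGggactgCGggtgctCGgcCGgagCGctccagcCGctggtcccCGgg
DPPA5: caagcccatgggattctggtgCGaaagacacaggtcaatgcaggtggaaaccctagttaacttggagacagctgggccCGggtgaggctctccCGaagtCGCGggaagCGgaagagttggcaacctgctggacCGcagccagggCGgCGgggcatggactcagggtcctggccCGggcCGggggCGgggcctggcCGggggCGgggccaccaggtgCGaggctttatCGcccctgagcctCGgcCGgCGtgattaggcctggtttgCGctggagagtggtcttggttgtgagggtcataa
ZNF445: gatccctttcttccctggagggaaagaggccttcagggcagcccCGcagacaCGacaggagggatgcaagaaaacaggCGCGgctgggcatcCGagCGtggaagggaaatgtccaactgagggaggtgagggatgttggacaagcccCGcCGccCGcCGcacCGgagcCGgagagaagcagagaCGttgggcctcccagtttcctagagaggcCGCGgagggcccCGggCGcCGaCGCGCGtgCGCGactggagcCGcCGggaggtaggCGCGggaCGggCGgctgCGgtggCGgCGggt

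The DPPA3 promoter held 6 CpG, of which 5 lay in its last 100 bases, and had a GC content of 38.3%. The ZFP57 and DPPA5 promoters held 20 CpG each, KHDC3L 16 and ZNF445 32, against a median of 14 over all 35116 promoters of the same length. In ZFP57 13 of the 20 lay in the last 100 bases, and in DPPA5 7 of 20 did. The letters TGCCGC, the site that ZFP57 binds when methylated in mouse, were searched on both strands and were found in 0 of the 5 promoters, and in 16.7% of all promoters. The methylation of these bases was not analysed here.

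A principal component analysis of the rows that carry no symbol split the arrays into 2 sides on its first component. The siNTC-1 side held 8 arrays, those of siDNMT1, siDNMT3B, siDNMT3L and siNTC-1, and the siNTC-2 side held the 18 arrays of the other 9 groups. No label names a batch. Each depletion was compared with the control on its own side, and values against the other control are given for DPPA3 and TRIM28, the genes whose calls changed most with it. The difference between the sides was large: 44.7% of all genes passed the test between siNTC-2 and siNTC-1. Arrays of a group correlated at 0.9973 to 0.9989 across genes. DNMT1 was called lower in all 4 groups that received its siRNA, at 37.4% to 59.5% of control, DNMT3A in 6 of 6 at 67% to 78.5%, DNMT3L in 4 of 4 at 68.3% to 79.7%, and DNMT3B in 5 of 6 at 50.3% to 99.4%, the exception being 3A+3B+3L. Pluripotency markers (9 of 12 measured, all 9 above the median gene) had array means of 11.43 to 11.75 on the log2 scale, markers of differentiated layers (16) 5.52 to 5.64, and markers of blood, endothelium and muscle (7 of 8) 4.15 to 4.35. With DNMT1 siRNA these ranges were 11.51 to 11.71, 5.52 to 5.62 and 4.23 to 4.34. Of the 9 pluripotency markers 5 were called higher, among them L1TD1 (0.37) and TERF1 (0.29), and 1 lower in siDNMT1 (19.8% of all genes called). In siD1+3B 4 were higher and 1 lower (25%), in siD1+3A 3 and 1 (22.8%), and in siD1+3A+3B 3 and 0 (18.6%). Without DNMT1 siRNA 4 were higher and 2 lower in siDNMT3B (24.2%), and 4 and 0 in siDNMT3L (19.2%) and 3B+3L (10.1%). In 3A+3L (22.4%) and 3A+3B+3L (23.3%) 4 were higher and 1 lower, in siDNMT3A 1 and 0 (15.8%), and in 3A+3B 1 and 1 (12.6%). The endothelial marker PECAM1, dim at a mean of 4.2, was called higher in siDNMT1 (0.39), siD1+3A (0.32) and siD1+3B (0.53). CDH5, also endothelial, was called lower in siDNMT1 (-0.21). Of the 16 markers of differentiated layers 0 rose and 2 fell in siDNMT1 and in siD1+3A. In siD1+3B 2 rose and 3 fell, and in siD1+3A+3B 0 rose and 3 fell, against the shares of all genes given above. HAND1 fell in all 4 groups (-0.40, -0.33, -0.60 and -0.38 in that order). The part of these markers in the results was not tested. POU5F1, NANOG and TDGF1 were not analysed here.

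**Figure D1:**
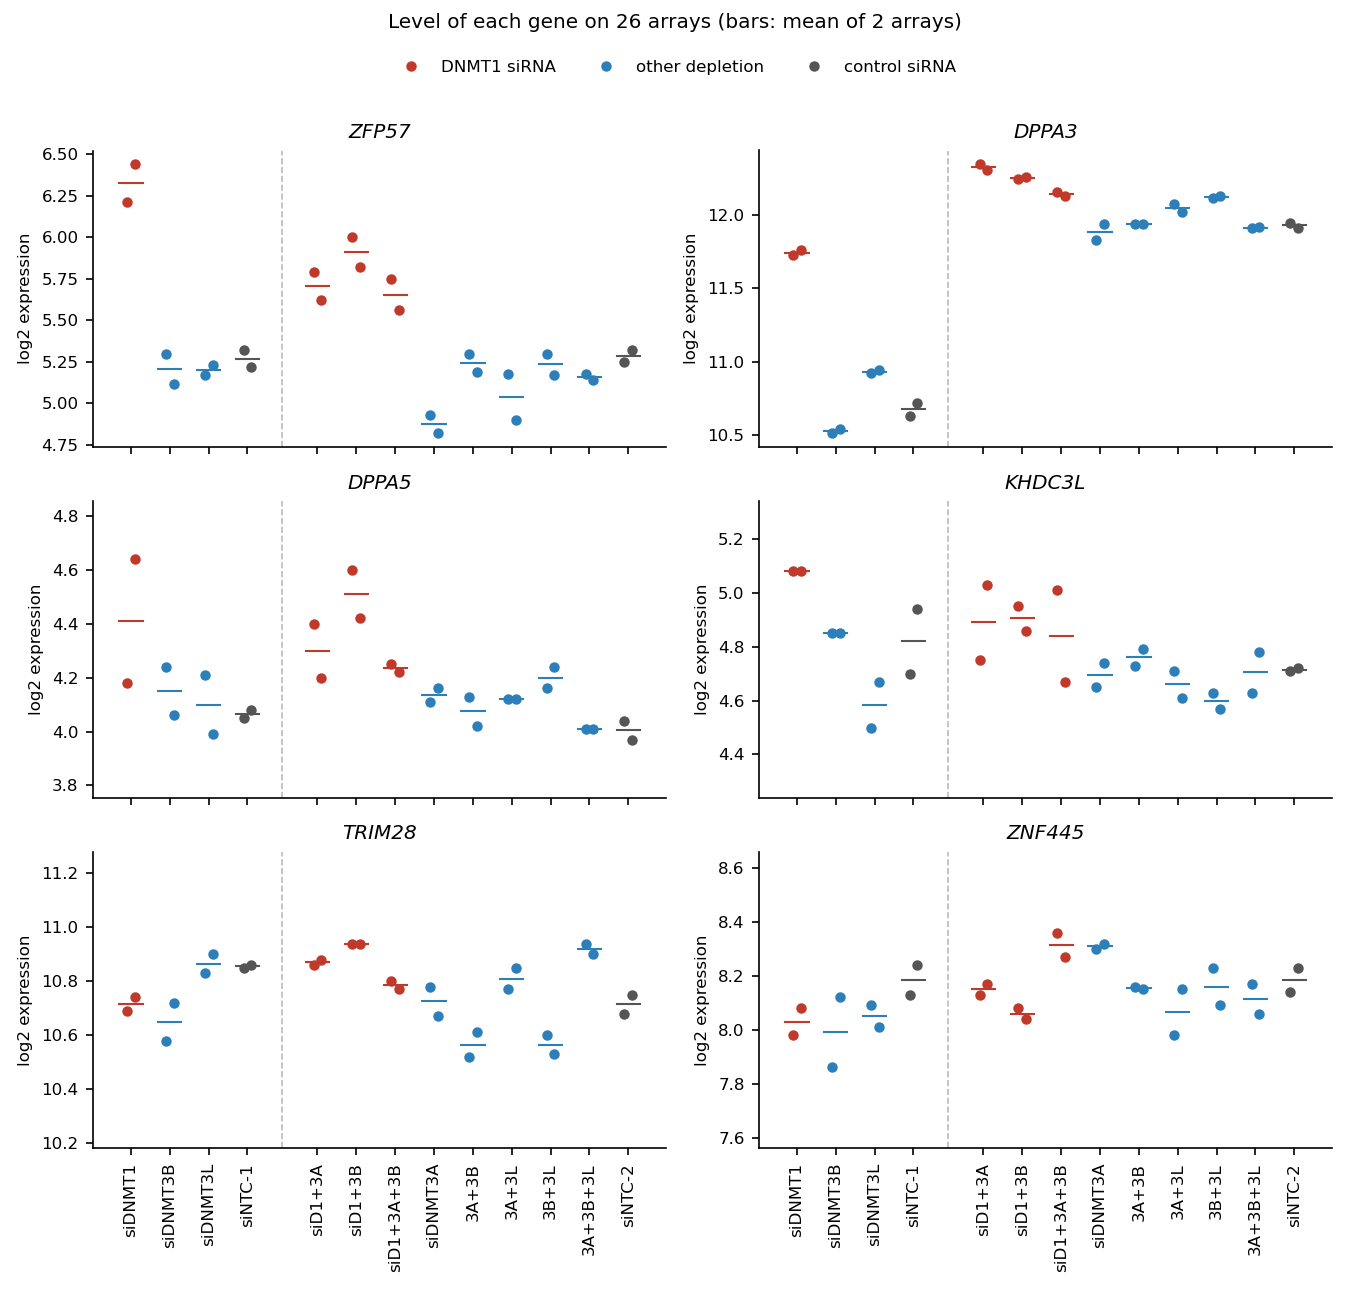
Level of each gene (log2 expression, vertical axis, its range set per panel) on the 2 arrays of each group, with a bar at the group mean; the dashed line separates the siNTC-1 side on the left from the siNTC-2 side. The 8 DNMT1 siRNA arrays of ZFP57 (5.56 to 6.44) lie above the other 18 (4.82 to 5.32), while DPPA3 is lower on the siNTC-1 side.

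ZFP57, the imprint-reading zinc finger gene, was higher in every group that received DNMT1 siRNA. Its mean over all arrays, 5.39, exceeded that of 33.7% of the genes. Its log2 levels were 6.21 and 6.44 in siDNMT1 arrays, against 5.32 and 5.22 in siNTC-1 arrays. They were 5.79 and 5.62 in siD1+3A, 6.0 and 5.82 in siD1+3B and 5.75 and 5.56 in siD1+3A+3B, against 5.25 and 5.32 in siNTC-2. No DNMT1 siRNA array overlapped with its control, and over the whole series the 8 DNMT1 siRNA arrays (lowest 5.56, median 5.80, highest 6.44) lay above the 18 arrays without it (lowest 4.82, median 5.19, highest 5.32). The same complete separation was found for 0.136% of all genes, and of the 6 genes measured here only ZFP57 showed it. Within the siNTC-2 side alone the 6 DNMT1 siRNA arrays lay above the 12 others for ZFP57 and for 0.467% of all genes.

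The difference in ZFP57 was 1.05 ± 0.10 on the log2 scale in siDNMT1 (SE, n = 2 arrays in each group here and below; 2.08-fold; limma adjusted p = 1.19e-06). ZFP57 ranked 28 of 18417 genes by that difference, next to DPPA3 at 27. It rose by 0.62 ± 0.10 in siD1+3B (1.54-fold, adjusted p = 0.000195), by 0.42 ± 0.10 in siD1+3A (adjusted p = 0.00599) and by 0.37 ± 0.10 in siD1+3A+3B (adjusted p = 0.016). The last 2 calls rested on single arrays: the siD1+3A difference was 0.33 without siD1+3A replicate 1 and 0.39 without siNTC-2 replicate 1, and that of siD1+3A+3B was 0.28 without its own replicate 1 and 0.34 without siNTC-2 replicate 1, none of which passed. The controls themselves differed by only 0.01 ± 0.10 in ZFP57 (siNTC-2 minus siNTC-1, 95% interval -0.20 to 0.23), and against the mean of both controls the difference was 1.05 in siDNMT1, 0.63 in siD1+3B, 0.43 in siD1+3A and 0.38 in siD1+3A+3B. In these bulk samples more cells with the transcript and more transcript per cell cannot be told apart.

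DNMT3A siRNA went the other way in ZFP57. Its levels were 4.93 and 4.82 in siDNMT3A arrays, against 5.25 and 5.32 in siNTC-2, the lowest group mean of the 13 (4.87 ± 0.08, SD, n = 2). The difference of -0.41 ± 0.10 passed (adjusted p = 0.0103), but not without siDNMT3A replicate 2 (-0.35) or siNTC-2 replicate 2 (-0.38). Combinations of DNMT3A siRNA without DNMT1 siRNA did not pass: 3A+3L had 5.18 and 4.90 (difference -0.25, adjusted p = 0.0996), 3A+3B had 5.30 and 5.19 (-0.04, adjusted p = 0.881) and 3A+3B+3L had 5.18 and 5.14 (-0.13, adjusted p = 0.452). Without 3A+3L replicate 1 the 3A+3L difference was -0.39 and passed. The groups siDNMT3B (5.30 and 5.12) and siDNMT3L (5.17 and 5.23) overlapped with siNTC-1, with 95% intervals of -0.28 to 0.16 and -0.29 to 0.15 for the differences. Of 12 steps between groups in the order of ZFP57 levels, 3 separated the arrays completely: from siNTC-2 up to siD1+3A+3B, from siD1+3A up to siD1+3B, and from siD1+3B up to siDNMT1.

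**Figure D2:**
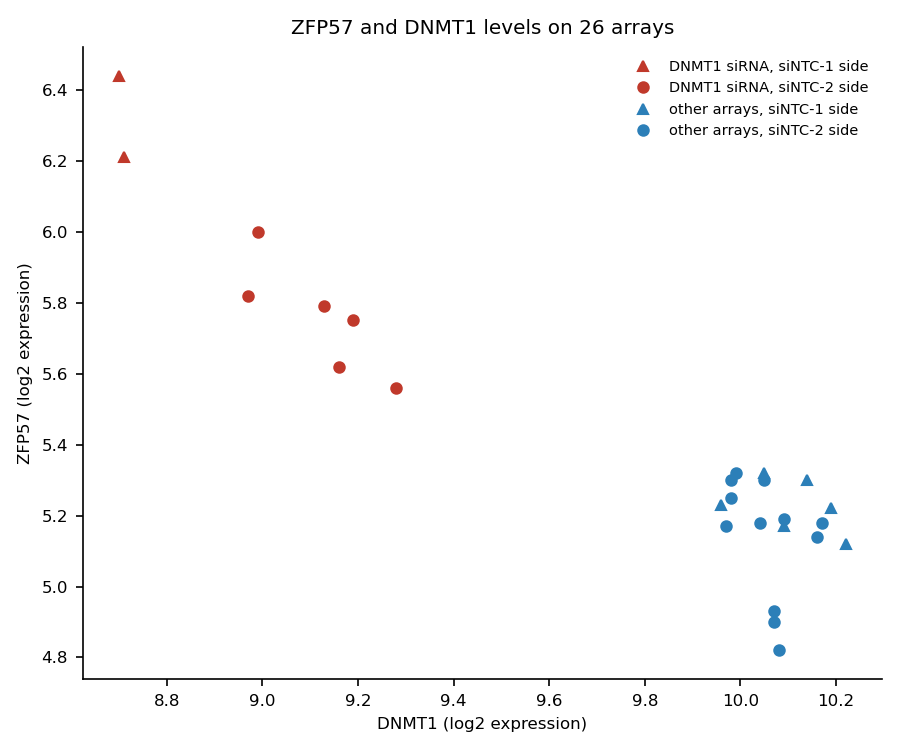
ZFP57 level (vertical axis) against DNMT1 level (horizontal axis), both log2 expression, on 26 arrays; colour marks DNMT1 siRNA and shape the side. DNMT1 siRNA arrays form a group at upper left, with siDNMT1 at 8.71 and 8.70 for DNMT1 and 6.21 and 6.44 for ZFP57.

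The plot of ZFP57 against DNMT1 shows 2 clusters, so no correlation over all arrays is given. The siDNMT1 arrays, lowest in DNMT1 at 8.71 and 8.70, were highest in ZFP57. The siD1+3A+3B arrays, least reduced in DNMT1 at 9.19 and 9.28, had the lowest ZFP57 mean of the 4 DNMT1 siRNA groups, 5.66 ± 0.14. How far the size of the knockdown sets the ZFP57 level was not tested.

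DPPA3, the zygotic methylation shield, was also higher with DNMT1 siRNA, but the controls differed from each other in it by more than any depletion differed from its same-side control. It had 11.73 and 11.76 in siDNMT1 arrays, 10.51 and 10.54 in siDNMT3B and 10.92 and 10.94 in siDNMT3L, against 10.63 and 10.72 in siNTC-1. On the other side it had 12.35 and 12.31 in siD1+3A, 12.25 and 12.26 in siD1+3B and 12.16 and 12.13 in siD1+3A+3B, against 11.95 and 11.91 in siNTC-2. The 6 arrays of the siNTC-1 side without DNMT1 siRNA (10.51 to 10.94) were the lowest of the series, and siDNMT1 lay between them and the siNTC-2 side. The remaining groups of the siNTC-2 side spanned 11.83 to 12.13, so siD1+3A+3B met the top of them. The siNTC-2 minus siNTC-1 difference was 1.26 ± 0.05 (2.39-fold, adjusted p = 1.32e-12), the only one of the 6 genes that passed between the controls.

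Against the same-side control DPPA3 rose by 1.07 ± 0.05 in siDNMT1 (2.10-fold, adjusted p = 7.25e-11), by 0.40 ± 0.05 in siD1+3A (adjusted p = 6.4e-06), by 0.32 ± 0.05 in siD1+3B (adjusted p = 6.04e-05) and by 0.22 ± 0.05 in siD1+3A+3B (adjusted p = 0.0029). The siDNMT1 value was 0.44 against the mean of both controls and -0.19 against siNTC-2, so its rise was smaller against that mean and reversed against the other side's control. Against the mean of both controls and against siNTC-1 the difference was 1.03 and 1.66 in siD1+3A, 0.95 and 1.58 in siD1+3B, and 0.85 and 1.47 in siD1+3A+3B. The groups 3A+3B (0.64 and 1.27) and 3A+3L (0.75 and 1.38), not called against siNTC-2, passed on those scales too. Both ZFP57 and DPPA3 were called higher in all 4 DNMT1 siRNA groups, as were 1.75% of all genes. DPPA3 also rose in siDNMT3L by 0.26 ± 0.05 (adjusted p = 0.000859; -0.37 against the mean of both controls) and in 3B+3L by 0.19 ± 0.05 (adjusted p = 0.0125), and fell by 0.15 ± 0.05 in siDNMT3B (adjusted p = 0.0305; -0.78 against the mean of both controls). The 3B+3L call was lost when either of its arrays or siNTC-2 replicate 2 was left out (0.18 to 0.20), and the siDNMT3B call when either of its arrays or siNTC-1 replicate 2 was (-0.16 to -0.10).

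A further row carries the symbol DPPA3, with a mean of 11.20 against 11.73 for the row used, and the annotation lists 12 DPPA3 pseudogenes and 4 of DPPA5, so probes of both genes may be shared with copies. In that row DPPA3 was 11.02 and 11.22 in siDNMT1 arrays, against 9.88 and 10.10 in siNTC-1 arrays, a rise of 1.13 ± 0.09 (adjusted p = 1.91e-07). The rises in siD1+3A (0.54), siD1+3B (0.56), siD1+3A+3B (0.40) and siDNMT3L (0.38) passed there too, while siDNMT3B (-0.07, adjusted p = 0.629) and 3B+3L (0.28, adjusted p = 0.0745) did not.

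DPPA5, the KH-domain gene of pluripotent cells, gave dim values, with a mean of 4.18 that exceeded 6.87% of the genes. It had 4.18 and 4.64 in siDNMT1 arrays, against 4.05 and 4.08 in siNTC-1. It had 4.60 and 4.42 in siD1+3B, 4.40 and 4.20 in siD1+3A and 4.25 and 4.22 in siD1+3A+3B, against 4.04 and 3.97 in siNTC-2. All DNMT1 siRNA arrays lay above their own control, but so did those of siDNMT3A (4.11 and 4.16), 3A+3L (4.12 and 4.12) and 3B+3L (4.16 and 4.24). Of the 13 groups siNTC-2 had the lowest mean (4.01). The 8 DNMT1 siRNA arrays (4.18 to 4.64) overlapped with the 18 others (3.97 to 4.24). The spread between the siDNMT1 arrays was the widest for this gene. The rise in siD1+3B was 0.50 ± 0.11 (1.42-fold, adjusted p = 0.00273). The rise in siDNMT1, 0.34 ± 0.11 (adjusted p = 0.0408), fell to 0.11 without siDNMT1 replicate 2 and was lost as well without siNTC-1 replicate 1 (0.32) or 2 (0.36). The differences in siD1+3A (0.29, adjusted p = 0.0735) and siD1+3A+3B (0.23, adjusted p = 0.18) did not pass, and the 14 arrays of the other depletions spanned 3.99 to 4.24.

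KHDC3L, the maternal complex gene next to DPPA5 on chromosome 6, passed in 0 of 11 depletions by limma, with 2 at an unadjusted p under 0.05. Its levels were 5.08 and 5.08 in siDNMT1 arrays, against 4.70 and 4.94 in siNTC-1, and the siDNMT1 arrays were the highest of the series. The difference of 0.26 ± 0.10 missed the threshold (adjusted p = 0.0889, 95% interval 0.04 to 0.48), passing without siNTC-1 replicate 2 (0.38) and against the mean of both controls (0.32, adjusted p = 0.0125). It had 4.75 and 5.03 in siD1+3A, 4.95 and 4.86 in siD1+3B and 5.01 and 4.67 in siD1+3A+3B, against 4.71 and 4.72 in siNTC-2, so the siD1+3A+3B arrays lay above and below their control.

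TRIM28, the corepressor, differed from its same-side control by -0.21 to 0.22 over the 11 depletions. It was 10.58 and 10.72 in siDNMT3B arrays, against 10.85 and 10.86 in siNTC-1, a fall of 0.21 ± 0.06 (adjusted p = 0.014). It was 10.94 and 10.94 in siD1+3B and 10.94 and 10.90 in 3A+3B+3L, against 10.68 and 10.75 in siNTC-2, rises of 0.22 ± 0.06 (adjusted p = 0.00734) and 0.20 ± 0.06 (adjusted p = 0.0146). Each of these 3 calls was lost when 1 array was left out: siDNMT3B without its replicate 1 (-0.14) or siNTC-1 replicate 2 (-0.20), siD1+3B without siNTC-2 replicate 1 (0.19), and 3A+3B+3L without its replicate 1 (0.18) or siNTC-2 replicate 1 (0.17). The siDNMT1 arrays had 10.69 and 10.74, a difference of -0.14 that did not pass (adjusted p = 0.107), while 7 of 11 depletions were under 0.05 unadjusted. With the control of the other side none of the 3 calls held (-0.07, 0.09 and 0.07 for siDNMT3B, siD1+3B and 3A+3B+3L), while 3A+3B (-0.29, adjusted p = 0.000481), 3B+3L (-0.29, adjusted p = 0.000388) and siDNMT3L (0.15, adjusted p = 0.0471) passed there. Against the mean of both controls 3A+3B (-0.22, adjusted p = 0.00286) and 3B+3L (-0.22, adjusted p = 0.002) passed and 3A+3B+3L did not (0.14, adjusted p = 0.056). The calls in siDNMT3B (-0.14, adjusted p = 0.0393) and siD1+3B (0.16, adjusted p = 0.0264) held against that mean. Which TRIM28 differences were called therefore depended on the control used.

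ZNF445, the other imprint-reading zinc finger, was not called in any of the 33 comparisons with the same-side control or between groups, including 0 of 11 depletions by limma with 1 at an unadjusted p under 0.05. Its 26 arrays spanned 7.86 to 8.36. It had 7.98 and 8.08 in siDNMT1 arrays, against 8.13 and 8.24 in siNTC-1, and the difference of -0.15 had a 95% interval of -0.32 to 0.02. The same interval for ZFP57 was 0.84 to 1.27. Against the mean of both controls ZNF445 passed in siDNMT3B (-0.19, adjusted p = 0.0385).

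**Figure D3:**
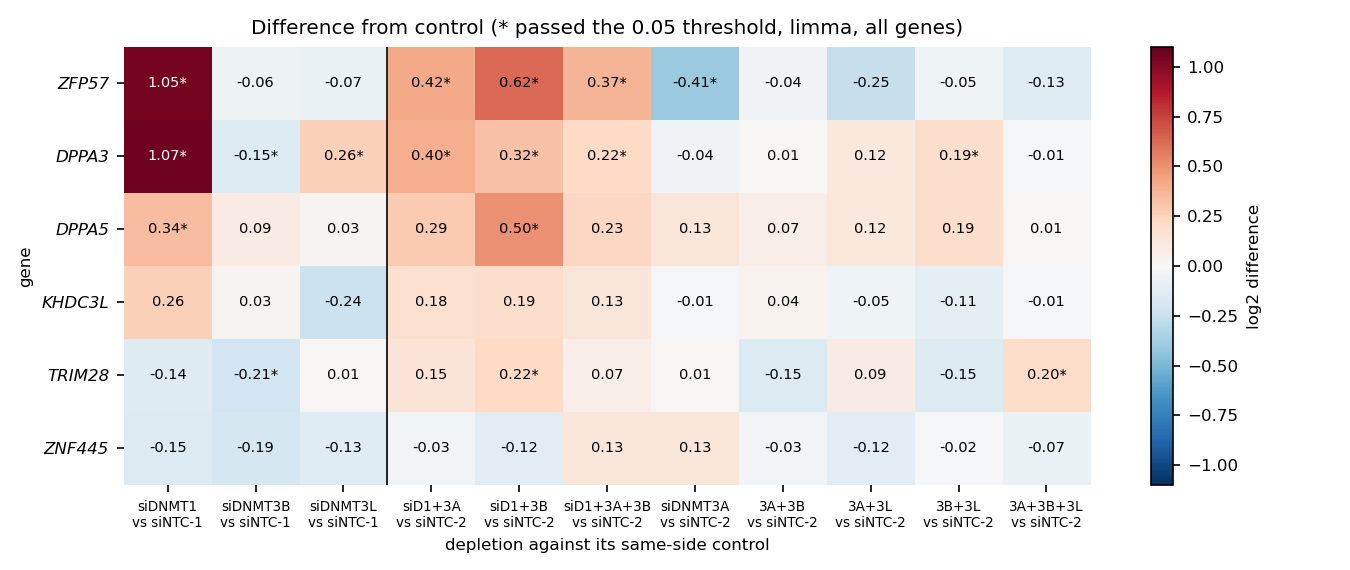
Log2 difference of each gene (rows) in each depletion (columns) from the control on the same side; colour gives the size and an asterisk an adjusted p under 0.05. ZFP57 and DPPA3 carry 10 of the 14 rises and ZFP57, DPPA3 and TRIM28 the 3 falls.

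Over the 11 depletions 17 of 66 differences passed, 14 higher and 3 lower, against 19.4% of all gene comparisons. In siDNMT1 3 of 6 genes rose where 19.8% of all genes were called, in siD1+3A 2 rose (22.8%), in siD1+3B 4 rose (25%) and in siD1+3A+3B 2 rose (18.6%). In siDNMT3B 2 fell where 24.2% were called, in siDNMT3L 1 rose (19.2%) and in siDNMT3A 1 fell (15.8%). In 3A+3B and 3A+3L 0 passed by limma, with 1 and 2 at an unadjusted p under 0.05, where 12.6% and 22.4% of genes were called, and in 3B+3L (10.1%) and 3A+3B+3L (23.3%) 1 rose. The total count is therefore near the background, and the 4 groups with DNMT1 siRNA held 11 of the 17 calls. The comparisons on a side share their control arrays.

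The 3 single depletions of the siNTC-1 side were also set against each other, which needs no control. ZFP57 was higher in siDNMT1 than in siDNMT3B by 1.12 ± 0.10 (adjusted p = 1.05e-06) and than in siDNMT3L by 1.13 ± 0.10 (adjusted p = 1.32e-06). DPPA3 was higher in siDNMT1 than in siDNMT3B by 1.22 ± 0.05 (adjusted p = 1.64e-11) and than in siDNMT3L by 0.81 ± 0.05 (adjusted p = 5.94e-09). KHDC3L, at 5.08 and 5.08 in siDNMT1 against 4.50 and 4.67 in siDNMT3L, was higher by 0.50 ± 0.10 (adjusted p = 0.00429), and lost the call without siDNMT3L replicate 1 (0.41). Calls numbered 2 of 6 genes in siDNMT1 against siDNMT3B (18.3% of all genes), 3 of 6 in siDNMT1 against siDNMT3L (12.6%) and 2 of 6, both lower, in siDNMT3B against siDNMT3L (10.8%). Those last 2 were DPPA3 (-0.40 ± 0.05, adjusted p = 2.41e-05) and TRIM28 (-0.22 ± 0.06, adjusted p = 0.0212), the TRIM28 call being lost without siDNMT3B replicate 1 (-0.14) or siDNMT3L replicate 2 (-0.18).

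On the siNTC-2 side pairs of groups differ by a single siRNA, and their average gives the effect of adding it without any control on another side. Adding DNMT1 siRNA, over siD1+3A and siD1+3A+3B against siDNMT3A and 3A+3B, raised ZFP57 by 0.62 ± 0.07 (adjusted p = 1.88e-05), DPPA3 by 0.33 ± 0.03 (adjusted p = 4.19e-06) and TRIM28 by 0.18 ± 0.04 (adjusted p = 0.00566). These were 3 of 6 genes, where 13.6% of all genes were called. Adding DNMT3A siRNA was averaged over siDNMT3A, siD1+3A+3B and 3A+3B+3L against siNTC-2, siD1+3B and 3B+3L. It lowered ZFP57 by 0.25 ± 0.06 (difference -0.25, adjusted p = 0.00681) and DPPA3 by 0.12 ± 0.03 (difference -0.12, adjusted p = 0.00499), 2 of 6 genes against 18.2%. In the other row of DPPA3 its difference was -0.10 and did not pass (adjusted p = 0.25). ZFP57 passed in the pair with siNTC-2 (-0.41), but not against siD1+3B (-0.25, adjusted p = 0.241) or 3B+3L (-0.08, adjusted p = 0.704). DNMT1 (0.18, adjusted p = 0.000568) and DNMT3B (0.26, adjusted p = 6.07e-05) were also higher with DNMT3A siRNA added, and their part was not tested. Adding DNMT3L siRNA raised TRIM28 by 0.22 ± 0.04 (adjusted p = 0.000847), 1 of 6 against 17.7%. That average includes 3A+3B+3L, the group where DNMT3B was not called lower. Adding DNMT3B siRNA gave 0 of 6 calls by limma, with 2 at an unadjusted p under 0.05, where 0.755% of all genes were called.

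The single pairs behind these averages differ in size. On DNMT3A siRNA, DNMT1 siRNA gave ZFP57 levels of 5.79 and 5.62 against 4.93 and 4.82, a difference of 0.83 ± 0.10 (adjusted p = 6.78e-05), and DPPA3 a difference of 0.44 ± 0.05 (adjusted p = 1.23e-05), 2 of 6 genes against 9.62% of all genes. On DNMT3A and DNMT3B siRNA together the differences were 0.41 ± 0.10 for ZFP57 (adjusted p = 0.0364), 0.21 ± 0.05 for DPPA3 (adjusted p = 0.0221) and 0.22 ± 0.06 for TRIM28 (adjusted p = 0.0456), 3 of 6 against 3.19%. All 3 lost the call whichever of the 4 arrays was left out, with values of 0.31 to 0.51, 0.19 to 0.22 and 0.17 to 0.26 for ZFP57, DPPA3 and TRIM28. ZFP57 and DPPA3 were called higher in all 3 additions of DNMT1 siRNA, alone, on DNMT3A and on DNMT3A with DNMT3B siRNA, as were 0.32% of all genes. In the other row of DPPA3 the difference on DNMT3A with DNMT3B siRNA was 0.23 and was not called (adjusted p = 0.217).

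Adding DNMT3A siRNA to DNMT3B and DNMT3L siRNA (3A+3B+3L against 3B+3L) raised TRIM28 by 0.36 ± 0.06 (adjusted p = 0.00022) and lowered DPPA3, difference -0.21 ± 0.05 (adjusted p = 0.00422), 2 of 6 against 18.9%; the DPPA3 difference in its other row was -0.22 and did not pass (adjusted p = 0.119). Adding it to DNMT1 and DNMT3B siRNA gave 0 calls by limma (5 at an unadjusted p under 0.05), where 3.02% of genes were called. Adding DNMT3L siRNA to DNMT3A and DNMT3B siRNA raised TRIM28, 10.94 and 10.90 against 10.52 and 10.61, by 0.36 ± 0.06 (adjusted p = 0.000509), 1 of 6 against 9.42%. DNMT3B itself was 11.63 and 11.69 in 3A+3B+3L, against 11.19 and 11.26 in 3A+3B and 11.28 and 11.14 in 3B+3L. In both TRIM28 comparisons the added siRNA and the weaker DNMT3B knockdown of 3A+3B+3L therefore cannot be told apart. Adding DNMT3L siRNA to DNMT3A siRNA alone raised DPPA3 by 0.16 ± 0.05 (adjusted p = 0.035), 1 of 6 against 10.1%, a call lost in the other row (0.13) and without siDNMT3A replicate 1 (0.11) or 3A+3L replicate 1 (0.13). Adding DNMT3B siRNA gave 0 calls by limma on DNMT3A (2 unadjusted; 0.0923% of all genes), on DNMT1 with DNMT3A (1 unadjusted; 0.57%) and on DNMT3A with DNMT3L siRNA (1 unadjusted; 0.0977%).

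**Figure D4:**
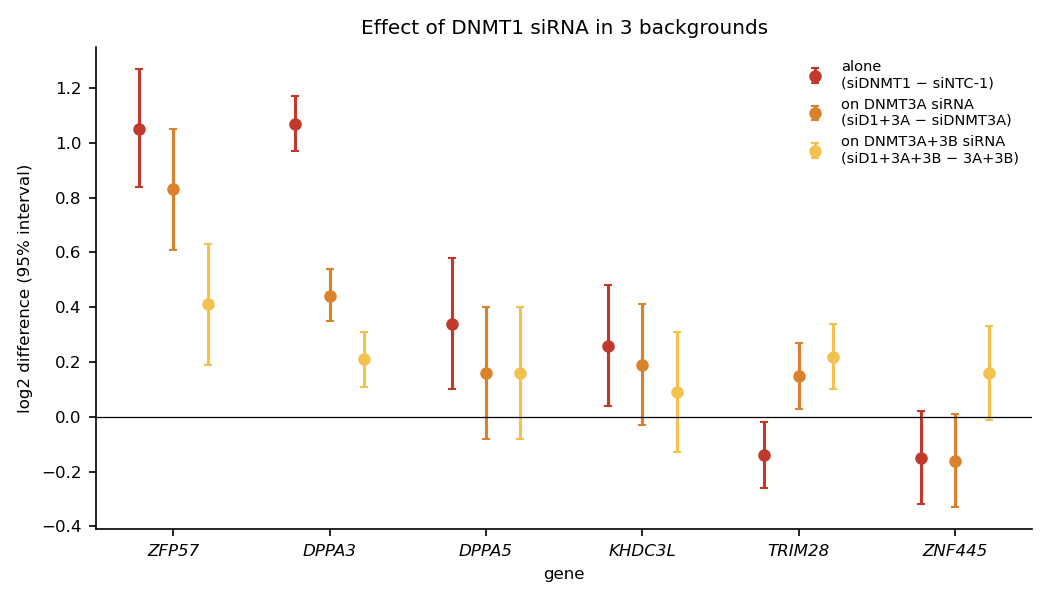
Log2 difference with its 95% interval (vertical axis) when DNMT1 siRNA is given alone, on DNMT3A siRNA or on DNMT3A and DNMT3B siRNA, for 6 genes. ZFP57 goes down from 1.05 over 0.83 to 0.41 and DPPA3 from 1.07 over 0.44 to 0.21. Intervals of neighbouring backgrounds overlap for ZFP57 but not for DPPA3. Those of DPPA5, KHDC3L and ZNF445 overlap across all backgrounds.

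The effect of DNMT1 siRNA was tested for a difference between backgrounds. For DPPA3 the effect alone exceeded that on DNMT3A siRNA by 0.63 ± 0.07 (adjusted p = 1.53e-05) and that on DNMT3A with DNMT3B siRNA by 0.87 ± 0.07 (adjusted p = 4.73e-07). For ZFP57 the first difference was 0.23 ± 0.15 and did not pass (adjusted p = 0.352), and the second was 0.64 ± 0.15 (adjusted p = 0.00843). TRIM28 went the other way, by -0.28 ± 0.08 (adjusted p = 0.0292) and -0.36 ± 0.08 (adjusted p = 0.009). Calls numbered 2 of 6 genes in the first test, where 12.7% of all genes were called, and 3 of 6 in the second (11%). The single depletion lies on the siNTC-1 side and the combinations on the other, so background and side cannot be told apart in these tests. DNMT1 itself was lowered more in siDNMT1 (-1.42) than in siD1+3A (-0.84) or siD1+3A+3B (-0.75). The size of the knockdown therefore cannot be told apart from them either. Within the siNTC-2 side, the effect of DNMT1 siRNA on DNMT3A siRNA minus that on DNMT3A with DNMT3B siRNA gave 0 calls by limma (3 unadjusted), where 0.076% of genes were called, with 0.42 ± 0.15 for ZFP57 (adjusted p = 0.393, 95% interval 0.11 to 0.72) and 0.24 ± 0.07 for DPPA3 (adjusted p = 0.248). For DNMT3B and DNMT3L siRNA, alone minus on DNMT3A siRNA, 0 genes passed by limma (2 and 0 unadjusted) against 9.97% and 8.32% of all genes.

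With the mean of each side subtracted, the range over 13 group means was 1.29 for ZFP57 and 1.22 for DPPA3, wider than in 99.5% and 99.4% of genes. It was 0.50 for DPPA5 and for KHDC3L, 0.38 for TRIM28 and 0.25 for ZNF445. Over these 13 centred means, which share the side means and the DNMT1 siRNA groups, r was 0.85 between ZFP57 and DPPA3, 0.82 between ZFP57 and DPPA5 and 0.83 between ZFP57 and KHDC3L, but 0.19 with TRIM28 and -0.20 with ZNF445. Among 2762 genes with a centred range of at least 0.5, the patterns most like ZFP57 were those of LGALS8, encoding a galectin (r = 0.957), GTSF1, encoding a piRNA pathway protein (r = 0.954), and H4C6, a histone H4 gene (r = 0.953). Those most like DPPA3 were GLIPR1 (r = 0.961), H4C6 (r = 0.938) and FGF16, encoding a growth factor (r = 0.933). GTSF1 rose by 1.72 ± 0.08 in siDNMT1 (adjusted p = 1.1e-10) and fell by 0.47 ± 0.08 in siDNMT3A (difference -0.47, adjusted p = 0.000488). It was picked for its likeness to ZFP57, so its directions are no separate result. It was also called lower in siDNMT3B (-0.30), 3A+3B (-0.59), 3A+3L (-0.34) and 3A+3B+3L (-0.46), where ZFP57 was not, and differed by 0.58 between siNTC-2 and siNTC-1. GLIPR1 rose in siDNMT1 by 0.56 ± 0.10 (adjusted p = 0.000603) and was not called in siD1+3B (0.00), siD1+3A (0.16) or siD1+3A+3B (-0.03).

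Neighbouring coding genes were looked up on the RefSeq assembly after the values of the 6 genes were seen, and 7 of 10 were measured. MOG, beside ZFP57, differed by 0.09 ± 0.11 in siDNMT1 (adjusted p = 0.629), and the neighbours of TRIM28 and ZNF445 did not pass there (ZBTB45 -0.02, CHMP2A -0.03, TCAIM 0.01, ZNF852 -0.13). CLEC4C, beside DPPA3, rose by 0.63 ± 0.12 in siDNMT1 (adjusted p = 0.0011) and by 0.57 ± 0.12 in siDNMT3B (adjusted p = 0.00185), and did not pass in siD1+3B (-0.02), siD1+3A (0.02) or siD1+3A+3B (-0.07). GDF3, the pluripotency-linked growth factor gene on the other side of DPPA3, was called higher in all 11 depletions, with or without DNMT1 siRNA, from 0.19 ± 0.05 in siDNMT1 (adjusted p = 0.00907) to 0.96 ± 0.05 in 3A+3B+3L (adjusted p = 8.55e-11). It was lower by 1.07 in siNTC-2 than in siNTC-1 (difference -1.07, adjusted p = 7.46e-12), where DPPA3 was higher by 1.26.

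The partners of TRIM28 and the H3K9 methylation machinery, a list of 19 genes all measured, had 0 rises and 2 falls in siDNMT1, EHMT1 (-0.19 ± 0.06, adjusted p = 0.029) and CHD3 (-0.33 ± 0.10, adjusted p = 0.0291). The list median was 0.02, against -0.03 over all genes, of which 19.8% were called. In siD1+3A 3 rose and 1 fell (22.8% of all genes called), in siD1+3B 5 rose and 2 fell (25%), and in siD1+3A+3B 4 rose and 3 fell (18.6%). CBX3, encoding heterochromatin protein HP1 gamma, rose in all 3 by 0.23, 0.24 and 0.19, and ATF7IP, the SETDB1 cofactor gene, fell in all 3 (-0.14, -0.25 and -0.16). Neither was called in siDNMT1 (CBX3 -0.08, ATF7IP -0.04), and CBX3 was lower (-0.52) and ATF7IP higher (0.19) in siNTC-2 than in siNTC-1. Adding DNMT1 siRNA raised 4 and lowered 0 (13.6% of all genes called), led by SUV39H1, an H3K9 methyltransferase gene (0.33 ± 0.04, adjusted p = 2.93e-05), and ATF7IP2 (0.28 ± 0.05, adjusted p = 0.00195). Between siNTC-2 and siNTC-1 6 were higher and 4 lower, where 44.7% of all genes were called.

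Of 25 maternal complex, NLRP and oocyte genes 22 were measured. Of these 22 genes, 3 were called in siDNMT1 (19.8% of all genes called) and 2 in each DNMT1 siRNA combination (18.6% to 25%). NLRP2, the relative and neighbour of NLRP7, was the only one that rose in siDNMT1 (0.23 ± 0.05, adjusted p = 0.00412). It was also the only one to rise with siD1+3B (0.56 ± 0.05, adjusted p = 3.8e-07), with siD1+3A (0.55 ± 0.05, adjusted p = 6.1e-07) and with siD1+3A+3B (0.53 ± 0.05, adjusted p = 1.66e-06). ZBED3, encoding a protein bound to the maternal complex in mouse, fell in all 4, between -0.38 in siDNMT1 and -1.01 in siD1+3B, and ZP3, a zona pellucida gene, fell in siDNMT1 (-0.47 ± 0.14, adjusted p = 0.0203). Both NLRP2 (-0.44) and ZBED3 (0.85) also passed between siNTC-2 and siNTC-1. Within the siNTC-2 side, adding DNMT1 siRNA raised NLRP2 by 0.17 (adjusted p = 0.00492) and adding DNMT3A siRNA by 0.24 (adjusted p = 2.92e-05). ZBED3 fell with either addition (-0.49 for DNMT1 siRNA and -0.18 for DNMT3A siRNA), so neither gene changed with DNMT1 siRNA only. The list medians of the 4 groups lay between -0.05 and 0.05, against -0.03 to 0 over all genes.

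Of 22 naive pluripotency and germ cell genes 7 rose and 1 fell in siDNMT1, the fall being ALPL (-0.32 ± 0.05, adjusted p = 0.000378). Among the rises was TFCP2L1, a naive pluripotency factor gene (0.36 ± 0.06, adjusted p = 0.000241). Others were PIWIL2, a piRNA-binding protein gene (0.44 ± 0.08, adjusted p = 0.000505), and DDX4, a germ cell helicase gene (0.43 ± 0.09, adjusted p = 0.00297). PIWIL2 and DDX4 gave dim values, with means of 4.21 and 4.73 that exceeded 7.98% and 21.7% of the genes. The share of all genes called was 19.8%, and the list median was 0.02, against -0.03. ZFP42, the naive pluripotency marker also called REX1, was raised by 0.57 in siD1+3B, by 0.51 in siD1+3A and by 0.36 in siD1+3A+3B, while TFAP2C, a germ cell specification factor gene, fell in siD1+3A (-0.31) and siD1+3B (-0.36). In siDNMT1 ZFP42 was not called (-0.08) and TFAP2C rose (0.19, adjusted p = 0.0185). Both differed between the controls, ZFP42 by -0.66 and TFAP2C by 1.33 (siNTC-2 minus siNTC-1). Adding DNMT1 siRNA raised 3, with DPPA2 at 0.55 ± 0.11 (adjusted p = 0.00265) and DPPA4 at 0.16 ± 0.03 (adjusted p = 0.003), and lowered 2, TFAP2C (-0.25) and KLF4 (-0.35), where 13.6% of all genes were called. Against siNTC-2 KLF4 was higher in siD1+3A (0.37, adjusted p = 0.00227) and siD1+3A+3B (0.25, adjusted p = 0.0314).

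Of 43 imprinted genes, the class that ZFP57, ZNF445 and TRIM28 act on, 30 were measured, and 1 rose and 3 fell in siDNMT1, where 19.8% of all genes were called. The rise was GRB10, a growth-restraining adaptor gene (0.21 ± 0.06, adjusted p = 0.0182), which adding DNMT1 siRNA on the other side lowered (-0.16, adjusted p = 0.0184), and the falls were PEG10, a retrotransposon-derived gene (-0.38 ± 0.04, adjusted p = 9.64e-06), RB1 (-0.35 ± 0.07, adjusted p = 0.00108) and INPP5F (-0.24 ± 0.05, adjusted p = 0.00182). RB1, the retinoblastoma gene, was called lower as well with siD1+3A (-0.27), with siD1+3B (-0.31) and with siD1+3A+3B (-0.25). PHLDA2, a placental growth-restraining gene, rose in siD1+3A (0.57 ± 0.11, adjusted p = 0.000974), siD1+3A+3B (0.42 ± 0.11, adjusted p = 0.0121) and siD1+3B (0.40 ± 0.11, adjusted p = 0.0119), but not in siDNMT1 (-0.07), and was lower in siNTC-2 than in siNTC-1 (-0.37). Counts were 2 higher and 4 lower in siD1+3A (22.8% of all genes called), 3 and 5 in siD1+3B (25%) and 1 and 4 in siD1+3A+3B (18.6%), and adding DNMT1 siRNA raised 0 and lowered 4 (13.6%).

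Of 17 methylation writers, erasers and imprint cofactors 16 were measured, of which 4 were called in siDNMT1, where 19.8% of all genes were called. Beside DNMT1 itself, siDNMT1 lowered DNMT3L (-0.40 ± 0.12, adjusted p = 0.0203) and ARID4B (-0.22 ± 0.07, adjusted p = 0.0414) and raised HELLS, a chromatin remodeller gene (0.21 ± 0.06, adjusted p = 0.0221). TET3, encoding the oxidase that DPPA3 holds off the maternal genome in mouse, fell in siD1+3A (-0.57 ± 0.08, adjusted p = 8.27e-05), siD1+3B (-0.61 ± 0.08, adjusted p = 3.08e-05) and siD1+3A+3B (-0.44 ± 0.08, adjusted p = 0.00114), and was higher by 0.86 ± 0.08 in siNTC-2 than in siNTC-1 (adjusted p = 1.87e-07). Adding DNMT1 siRNA raised UHRF1, the partner that brings DNMT1 to replicated DNA (0.25 ± 0.06, adjusted p = 0.0142), and lowered TET3 (-0.28 ± 0.06, adjusted p = 0.00383).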

How the data were processed

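Groups came from the sample titles. The deposited values are log2 expression per transcript cluster, 1 column per array, made by the authors; per the submitters' processing notes Partek was used, with no step or version named, and the sources used here do not give the normalization. Values ran from 3.04 to 14.87, from which the log base is inferred. Array medians of 6.28 to 6.33 mean that an overall shift would not be visible. Of 33297 rows, 19460 had 1 symbol, 1754 several and 12083 none; 19429 of those with 1 symbol matched RefSeq (GRCh38.p14) by gene number, and 0 were renamed.

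A model of 13 group means over 26 arrays was fitted with limma 3.58.1 (R 4.3.3; lmFit, eBayes, 13 residual degrees of freedom), with Benjamini-Hochberg adjustment over 18417 genes, threshold 0.05, two-sided, in 33 comparisons. The fit was tested on simulated data. The members, gene lists, sides and same-side controls were chosen with earlier results of these data known. All members are named; from each other list up to 4 genes with the smallest adjusted p, and for patterns the 3 nearest genes for the 2 members of widest range. Neighbouring genes, single pairs and differences between backgrounds were chosen after values were seen. Alternatives were a filter on the dimmest 40%, quantile normalization, a trended robust prior, the replicate number as a block, array weights, all rows with 1 symbol, only the groups compared, other controls and each array left out.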

Additional observations from a re-analysis of the deposited data

Results flagged for a closer look

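The effect of DNMT1 siRNA differed between backgrounds for 3 genes by a test of the difference itself, with limma and adjustment over all genes. The effect alone minus that on DNMT3A siRNA was 0.63 ± 0.07 for DPPA3 (adjusted p = 1.53e-05) and -0.28 ± 0.08 for TRIM28 (adjusted p = 0.0292). The effect alone minus that on DNMT3A with DNMT3B siRNA was 0.87 ± 0.07 for DPPA3 (adjusted p = 4.73e-07), 0.64 ± 0.15 for ZFP57 (adjusted p = 0.00843) and -0.36 ± 0.08 for TRIM28 (adjusted p = 0.009). Of all genes 12.7% were called in the first test and 11% in the second. In these tests the background, the side of the arrays and the size of the DNMT1 knockdown cannot be told apart. Within the siNTC-2 side, the effect on DNMT3A siRNA minus that on DNMT3A with DNMT3B siRNA gave 0 calls among the 6 genes by limma. There 3 were under 0.05 unadjusted, and 0.076% of all genes were called. The first TRIM28 call was lost in 6 of the 8 fits that left out an array of the comparison (-0.29 to -0.23), and the second without 3A+3B replicate 1 (-0.31).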

How the results depend on the processing

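The 17 calls of the 11 depletions became 10 with only the groups of each comparison in the fit and 10 without DPPA3, and 13 to 18 with each array left out. The 1 call between the controls became 2 without the 40% dimmest genes and 2 with a trended and robust prior, and 1 to 2 with an array left out. The 7 calls among single depletions became 4 without the dimmest genes and 4 with only the groups compared, and 6 to 9 with an array left out. The 6 calls of the added siRNAs ranged over 6 to 7. DPPA3 changed direction with the control: against the mean of both controls it was -0.37 in siDNMT3L, 0.59 in siDNMT3A and 0.62 in 3A+3B+3L, and against the control of the other side -0.19 in siDNMT1, -1 in siDNMT3L, 1.21 in siDNMT3A and 1.25 in 3A+3B+3L, as the 1.26 between the controls fixes by construction.

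With the replicate number as a block the counts were 17, 1, 7 and 6 for depletions, controls, single depletions and added siRNAs. TRIM28 lost its call in siD1+3A+3B against 3A+3B (0.22, adjusted p = 0.0506) and ZFP57 gained one for DNMT3B siRNA alone minus on DNMT3A siRNA (-0.43, adjusted p = 0.0418). Deviations of same-numbered arrays correlated at -0.26 to 0.19 between groups (median 0; 9 of 78 pairs of groups over 0.1), so the numbers do not pair the arrays. ZFP57, DPPA5 and KHDC3L are among the dimmest 40% and leave the test with that filter, so their calls leave the count by construction, and signal limits all 3. Of the 99 values of the genes that stayed, 0 became weaker and 7 stronger.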
